A study of Arabidopsis thaliana with 21 samples.

Results

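The transcripts of 9 glycine-rich RNA-binding proteins of Arabidopsis thaliana were examined as binding partners of one of them, AtGRP7, in iCLIP data. They were AtGRP7 (AT2G21660), AtGRP8 (AT4G39260), GR-RBP2 (AT4G13850), GR-RBP3 (AT5G61030), GRP4 (AT3G23830), GR-RBP5 (AT1G74230), RZ-1A (AT3G26420), RZ-1B (AT1G60650) and RZ-1C (AT5G04280). Members were chosen by the gene identifier attached to each crosslink (XL) site, not by any measured value. Of the 9 genes, 5 had a listed XL site, and they held 666 of 145822 distinct positions. In the 21 libraries, 4968 genes had a listed site, not all of which need be coding. For scale, 27407 coding genes of the annotation were searched for a hexamer below.

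AtGRP7 and AtGRP8 each combine an RNA recognition motif with a glycine-rich stretch. Both are under control of the circadian clock and peak in the evening, and AtGRP7 acts in a feedback loop in which it binds its own pre-mRNA and that of AtGRP8 and favours an alternative 5′ splice site in their introns, giving unstable transcripts. GR-RBP2, GR-RBP3, GRP4 and GR-RBP5 have the same domain order and include mitochondrial proteins linked to cold responses and RNA editing, whereas the RZ-1 proteins carry an additional zinc finger.

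iCLIP maps protein-RNA contacts by UV crosslinking and immunoprecipitation, with each XL site placed 1 nt upstream of a read start. Plants expressed AtGRP7-GFP in grp7-1 (5 libraries at LL36, 3 at LL24), the RNA-binding mutant AtGRP7 R49Q-GFP in grp7-1 (2 and 3) or GFP-only in Col-0 (5 and 3). They were 18 d old, grown for 16 d at 20 °C with 12 h of light per day and then kept in continuous light (LL) until 24 h (LL24, subjective dawn) or 36 h (LL36, subjective dusk), and aerial tissue was crosslinked at 254 nm with 500 mJ/cm2. All transgenes were driven by the AtGRP7 promoter, and at least 10 plants were bulked per sample. The AtGRP7-GFP transgene carries the AtGRP7 5′ UTR, intron and 3′ UTR, and the GFP-only transgene the 5′ UTR and 3′ UTR next to an intact endogenous gene. At the AtGRP7 locus, reads of the transgene and reads of the endogenous gene therefore cannot be told apart by sequence. The paper describes grp7-1 as a T-DNA loss-of-function mutant, so that the AtGRP7 profile in AtGRP7-GFP libraries is not to be read as that of the endogenous transcript. How much of it comes from the transgene was not tested.

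The deposited lists hold only positions that passed the authors' FDR, each with its crosslink count. They held 27035 to 85639 positions per AtGRP7-GFP library at LL36 (109583 to 401493 crosslinks) and 8092 to 25018 at LL24 (27252 to 98067 crosslinks). AtGRP7 R49Q-GFP libraries held 12 to 532 positions at LL36 and 76 to 2710 at LL24, and GFP-only libraries 21 to 210 and 27 to 292. For both controls, the paper reports fewer significant sites at LL36 than the largest of these LL36 lists holds. The reason was not tested. A gene without a listed position is reported as not listed, since positions below the FDR were not analysed here.

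The sequences around the most strongly crosslinked base of each region are shown first, because the values below are counts at these bases. In each region of AtGRP7 and AtGRP8 with a reproducible position (listed in at least 4 of the 5 AtGRP7-GFP libraries at LL36), the position with the highest mean count was taken, with 10 nt on each side (RNA sense, TAIR10 coordinates, minus strand, capital at the crosslinked base).
AtGRP7 5′ UTR, chr2:9266358-9266378: ucuacacaucUcacugcucac
AtGRP7 coding exon 2, chr2:9265846-9265866: ucaaggggauUcggauucguc
AtGRP7 intron, chr2:9266115-9266135: aucuuguguuUcucuguuacu
AtGRP7 3′ UTR, chr2:9265326-9265346: uauuuugguaUcuggaaacgu
AtGRP8 5′ UTR, chr4:18274998-18275018: cacauaagucUcucucuuaca
AtGRP8 coding exon 1, chr4:18274870-18274890: aaggacguucUcacaguucgg
AtGRP8 3′ UTR, chr4:18274054-18274074: guuuacuuuuUugaugaaaca
The crosslinked base was a U at all 7 positions. At AtGRP7 9266368 in the 5′ UTR, replicates 1, 2, 4 and 5 had 52, 62, 60 and 66 crosslinks, whereas replicate 3 did not list it. AtGRP7 9265856 in exon 2 had 53, 45, 21, 61 and 49 crosslinks in replicates 1 to 5. AtGRP7 9266125 in the intron had 21, 39, 10, 20 and 16, and 9265336 in the 3′ UTR, with the highest mean count of these positions, had 120, 153, 55, 95 and 96. Replicate 3, the library with the fewest listed positions, was lowest at each of these 4 positions.

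AtGRP8 positions had lower counts. Position 18275008 in its 5′ UTR had 9, 6, 2 and 7 crosslinks in replicates 1, 2, 4 and 5, and 18274880 in exon 1 had 14, 6, 9 and 12 in the same libraries, and replicate 3 listed neither. Of these 3 positions, only 18274064 in the 3′ UTR was listed in all 5 libraries, with 10, 8, 4, 2 and 6 crosslinks.

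AtGRP7 was among the most densely crosslinked transcripts at LL36. It had 296, 355, 214, 262 and 269 listed sites in AtGRP7-GFP replicates 1 to 5, a mean of 279.2 ± 51.7 (SD, n = 5), with 3413, 4375, 1272, 1752 and 2368 crosslinks. These made up 1.00%, 1.09%, 1.16%, 1.44% and 1.14% of the library's listed crosslinks, so that the share varied less between libraries than the count. By crosslink count, AtGRP7 ranked between 8 and 13 among the transcripts of each library, and by number of sites between 2 and 10. In the controls at LL36, AtGRP7 had 0 and 9 listed sites in the AtGRP7 R49Q-GFP libraries and 0, 10, 0, 5 and 0 in GFP-only replicates 1 to 5. The AtGRP7-GFP libraries did not overlap with either control.

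AtGRP8, the closest relative of AtGRP7, had 106, 130, 25, 32 and 85 listed sites in AtGRP7-GFP replicates 1 to 5 (75.6 ± 45.9), with 305, 350, 45, 76 and 223 crosslinks. It had 0 and 6 sites in the AtGRP7 R49Q-GFP libraries and none in GFP-only libraries at LL36. Per kb of unspliced gene, AtGRP7 had 2315, 2968, 863, 1189 and 1607 crosslinks, against 220, 252, 32.4, 54.8 and 161 for AtGRP8. The AtGRP7 level per kb was thus 10.0 to 26.6 times that of AtGRP8, with the highest ratios in replicates 3 and 4, which listed the fewest positions. These counts hold only positions that passed the FDR and, for AtGRP7, include reads of the transgene. Transcript abundance was not measured, so that the ratio does not give binding per transcript.

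**Figure D1:**
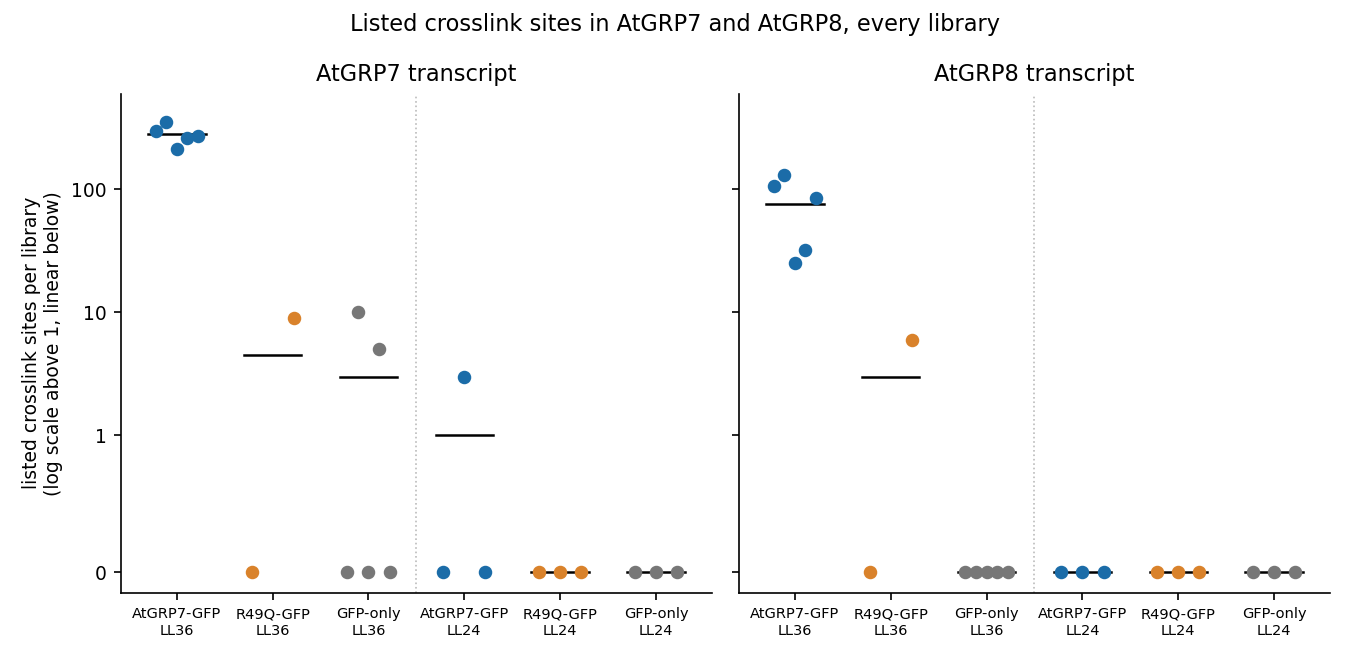
Listed XL sites in the AtGRP7 (left) and AtGRP8 (right) transcript in every library (points) with the group mean (black line); the y axis is logarithmic above 1 and linear below. AtGRP7-GFP libraries at LL36 list 214 to 355 sites in AtGRP7 and 25 to 130 in AtGRP8, above every control library, while at LL24 1 library lists 3 sites in AtGRP7 and none lists AtGRP8.

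On the scale of log2(sites + 1), AtGRP7 was higher in AtGRP7-GFP than in GFP-only libraries at LL36 by 6.90 and AtGRP8 by 5.99 (two-sided exact permutation test, p = 0.00794 for each, the smallest p for 5 against 5). Against AtGRP7 R49Q-GFP the differences were 6.45 and 4.59 (exact permutation test, p = 0.0952, the smallest that 5 against 2 allows). Every AtGRP7-GFP library listed more sites than any control library in 16.5% of 4497 transcripts for GFP-only and in 16.7% of 4454 for AtGRP7 R49Q-GFP. Only AtGRP7 and AtGRP8 of the 9 genes were among them. At LL24, where the corresponding shares were 20.3% of 1512 and 16.5% of 1732 transcripts, none of the 9 genes was. Depth differed by orders of magnitude between the genotypes. As a share of listed crosslinks, AtGRP7 made up 1.17 ± 0.163% in AtGRP7-GFP and 0.971 ± 1.34% in GFP-only libraries at LL36, a difference of 0.195 percentage points that was smaller than the spread between libraries (exact permutation test, p = 0.833). Without GFP-only replicate 1, 3 or 5, which did not list AtGRP7, it was −0.0475. As a share of listed sites, the difference was −1.49 percentage points against GFP-only (exact permutation test, p = 0.444) and −0.236 against AtGRP7 R49Q-GFP (exact permutation test, p = 0.571).

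The few control sites lay where AtGRP7-GFP was crosslinked as well. In AtGRP7 R49Q-GFP replicate 2 at LL36, 9 AtGRP7 positions with 13 crosslinks (1.11% of that library) lay between 9266285 and 9266302 in the coding part of exon 1, and all 9 were reproducible in AtGRP7-GFP. In that part, 112 of 114 bases were listed in AtGRP7-GFP and 74 were reproducible, so that the overlap says little about these sites. The 9 positions are marked by capitals in the following stretch, and 5 of the 9 were a U.
AtGRP7 exon 1, chr2:9266282-9266305, minus strand: ugaUGuUGAguaUCggUgcuUcgu
The same library listed 6 AtGRP8 positions with 9 crosslinks (0.765%) in the 5′ UTR, at 18275003 to 18275017, all listed in AtGRP7-GFP and 2 of them reproducible. Of the 258 bases of this 5′ UTR, 45 were listed in AtGRP7-GFP and 6 were reproducible. GFP-only sites in AtGRP7 lay in the 3′ UTR instead. Replicate 2 listed 10 positions with 15 crosslinks (2.69% of the library) at 9265340 to 9265384, and replicate 4 listed 5 with 6 crosslinks (2.17%) at 9265324 to 9265339, all 15 of them reproducible in AtGRP7-GFP. In the 3′ UTR from 9265373 onwards, 50 of 54 positions listed in AtGRP7-GFP were reproducible, so that this overlap also says little about the sites. Since the GFP-only transgene ends in the AtGRP7 3′ UTR, the source of the GFP-only reads cannot be told apart. In none of the control libraries at LL24 was any of the 9 genes listed.

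**Figure D2:**
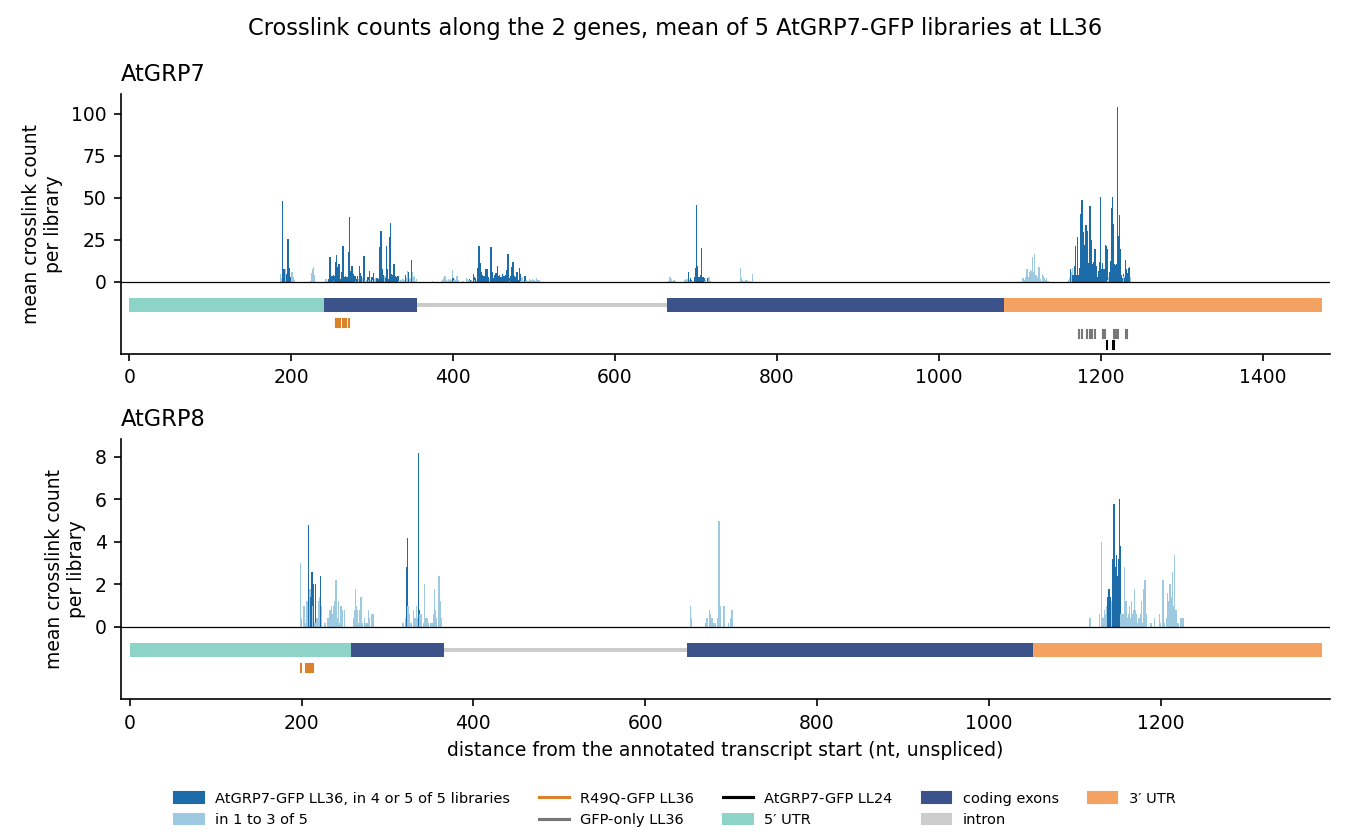
Mean crosslink count per library (bars, 5 AtGRP7-GFP libraries at LL36) against the distance from the annotated transcript start in nt for AtGRP7 (top) and AtGRP8 (bottom), with positions in 4 or 5 libraries in dark blue; below each axis are the gene model and ticks for positions listed in AtGRP7 R49Q-GFP and GFP-only at LL36 and in AtGRP7-GFP at LL24. Counts in AtGRP7 fall into an upstream block over 5′ UTR end, exon 1 and first part of the intron, a short block at the start of exon 2 and a block in the 3′ UTR.

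XL sites in AtGRP7 recurred at the same base between libraries. Of 411 positions listed at LL36, 229 were listed in at least 4 of 5 libraries and 134 in all 5. This was the third highest number among 827 transcripts with a reproducible position, which were 18.6% of the 4435 transcripts listed in these libraries. In AtGRP8, 22 of 195 positions were reproducible (rank 208) and 6 were listed in all 5 libraries. With 1 library left out and 3 of 4 required, AtGRP8 had 40, 45 and 35 such positions without replicates 3, 4 and 5. The other 7 genes had none. At positions shared by a pair of libraries, the AtGRP7 counts correlated with Spearman's rho of 0.62 to 0.81 (10 pairs, 156 to 278 positions, across positions of 1 transcript), and those of AtGRP8 with −0.05 to 0.59 (8 to 64 positions).

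The crosslinks covered discrete stretches of AtGRP7 (chr2:9265084-9266557, minus strand, 1474 nt). Positions no more than 30 nt apart were joined into clusters. The first reached over 320 nt, 9266051 to 9266370, and joined the last part of the 5′ UTR, the coding part of exon 1 and the beginning of the intron. It held 249 positions, 143 of them reproducible, and 36% to 49.9% of the crosslinks in AtGRP7. In the coding part of exon 1, 112 of 114 bases were listed in at least 1 library, and 74 of them were reproducible. Exon 2 had clusters at 9265839 to 9265891 (40 positions, 17 reproducible) and at 9265787 to 9265802 (13 positions, none reproducible). A stretch of 333 nt without a listed position followed, which covers most of the coding part of exon 2, where the glycine-rich stretch is encoded, and the first bases of the 3′ UTR. Of the 310 coding bases after the last listed position, all would give a unique 30-nt read, 96.5% a unique 20-nt read and 57.1% a unique 15-nt read in the genome, where 15 nt was the shortest read the authors kept. The lengths of the mapped reads were not analysed here. The last cluster, 9265320 to 9265453 in the 3′ UTR, had 109 positions, 69 of them reproducible, and 40.4% to 59.3% of the crosslinks.

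AtGRP8 (chr4:18273829-18275216, minus strand, 1388 nt) had a similar order of clusters, but none in the intron. They lay at 18274932 to 18275017 across 5′ UTR and start of exon 1 (63 positions, 6 reproducible) and at 18274853 to 18274898 in exon 1 (36, 4 reproducible). Further clusters lay at 18274515 to 18274563 at the beginning of exon 2 (21, none reproducible, in 3 libraries) and at 18273990 to 18274098 in the 3′ UTR (75, 12 reproducible). Here a stretch of 416 nt without a listed position preceded the 3′ UTR cluster.

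Relative to its length, the 3′ UTR had the highest mean share of the crosslinks in both transcripts, which for AtGRP7 held by crosslink count and not by number of sites. In AtGRP7 the 3′ UTR held 50.4 ± 6.73% of the crosslinks (SD, n = 5) and made up 26.7% of the gene. The 5′ UTR held 5.81 ± 3.37% (16.4% of the length), the coding exons 29.9 ± 2.91% (36%) and the intron 13.9 ± 2.51% (21%). All 5 libraries deviated in the same direction in each region, and the adjusted p was 0.0625 for each (exact sign-flip permutation test, Benjamini-Hochberg over the 4 regions), the smallest that 5 libraries allow. Counting sites in place of crosslinks turned the direction for coding exons and intron, which then lay 5.44 and 4.69 percentage points above their length share. The 3′ UTR excess, 23.7 percentage points by crosslinks, was 1.91 by sites (exact sign-flip permutation test, adjusted p = 0.375), with 25.0% and 25.1% of the sites of replicates 1 and 2 against 26.7% of the length. With the shorter UTR ends of the second annotated model, the 5′ UTR lay −0.91 percentage points from its length share in place of −10.5 (exact sign-flip permutation test, adjusted p = 0.688).

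In AtGRP8, the 3′ UTR held 39.7%, 57.4%, 100%, 31.6% and 32.7% of the crosslinks in replicates 1 to 5 (52.3 ± 28.6%), against 24.3% of the length. Replicate 3 listed AtGRP8 in the 3′ UTR alone, and without it the excess over the length share was 16.1 percentage points, against 28.0 with all 5 libraries. The 5′ UTR held 22.1 ± 15% (18.6% of the length) and the coding exons 25.6 ± 15.9% (36.7%). In replicates 4 and 5, the 5′ UTR held 40.8% and 29.1% and thus more than the 3′ UTR relative to length. No region reached significance (exact sign-flip permutation test, adjusted p = 0.125 to 0.5625). The intron of AtGRP8 was not listed in any library, whereas that of AtGRP7 was listed in all 5, a difference of 13.9 percentage points (exact sign-flip permutation test, p = 0.0625, adjusted p = 0.25). For the 3′ UTR the paralogs differed by −1.91 percentage points, which is within the spread between libraries (SD 23.3), and by 7.79 without replicate 3. Counted in sites, the paralogs differed by −22.2 percentage points in the 3′ UTR, 15.4 in coding exons and 25.6 in the intron (exact sign-flip permutation test, adjusted p = 0.0833 for each). Without replicate 4, the AtGRP8 5′ UTR lay −1.20 percentage points from its length share, against 3.48 with all 5 libraries.

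**Figure D3:**
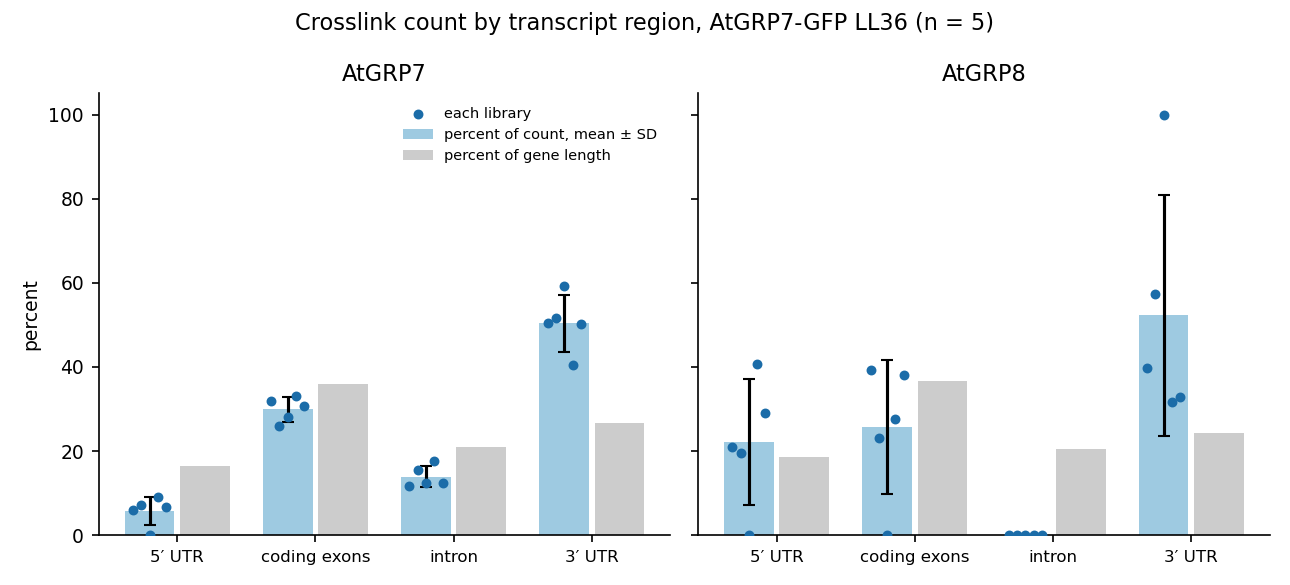
Percent of the transcript's crosslink count in each region (light blue bars, mean ± SD, points for the 5 AtGRP7-GFP libraries at LL36) beside the percent of the unspliced gene length (grey) for AtGRP7 and AtGRP8. The 3′ UTR exceeds its length share in every library for both genes, and the AtGRP8 intron is at 0 in all libraries.

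Within the AtGRP7 intron (9265894 to 9266202, 309 nt), all 114 listed positions lay in the first 152 nt, at 9266051 to 9266202, and 59 of them were reproducible. The remaining 157 nt had none. In each of the 5 libraries, 100% of the intronic crosslinks thus lay before the midpoint of the intron, which takes up 49.8% of its length (exact sign-flip permutation test, p = 0.0625, the smallest possible). The alternative 5′ splice site was not in the annotation used, so that the midpoint was taken. In numbers, 399, 677, 158, 307 and 292 crosslinks were intronic in replicates 1 to 5. For listed intronic positions, 100% of 30-nt reads, 84.2% of 20-nt reads and 35.1% of 15-nt reads would be unique.

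The AtGRP7 3′ UTR cluster lay 24 to 157 nt after the stop codon and differed between libraries in its upstream part. The hexamer UUCUGG occurs in 1 copy in AtGRP7 and in 1 copy in AtGRP8, in both cases in the 3′ UTR, 88 and 67 nt after the stop codon. On the sense strand, 8.29% of 27407 coding genes had it within 393 nt after the stop codon. The hexamer is shown in capitals with 10 nt on each side.
AtGRP7, chr2:9265374-9265399: cucuauuuugUUCUGGuucugcuuua
AtGRP8, chr4:18274084-18274109: gugucaccacUUCUGGuuugguuauc
In this window of AtGRP7, 23 of 26 bases were listed and 19 were reproducible, with 642, 621, 284 and 285 crosslinks in replicates 1, 2, 3 and 5. Replicate 4 listed no position in the window. Upstream of the window, replicate 4 had 243 crosslinks at 32 positions. There, replicates 1, 2 and 5 had 12 crosslinks at 1 position, 292 at 15 and 51 at 7, and replicate 3 had none. Downstream of the window, the libraries had 31.2%, 30.7%, 36.9%, 26.5% and 36.1% of their AtGRP7 crosslinks and were closer to each other. In the AtGRP8 window, 4 positions had 27 crosslinks in all and none was reproducible. The bounds of these stretches were chosen after the positions were seen.

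**Figure D4:**
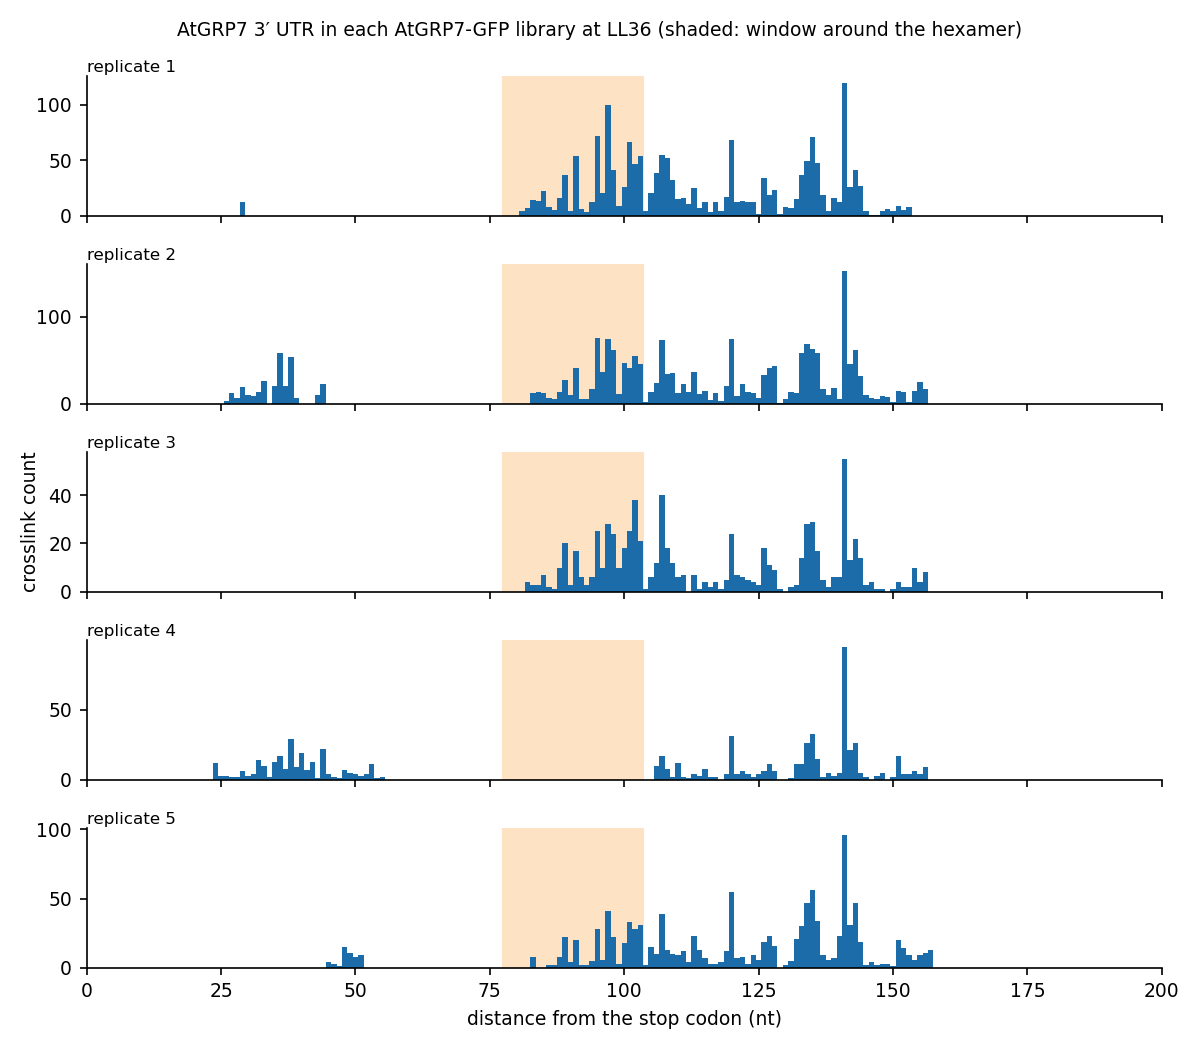
Crosslink count per base against the distance from the AtGRP7 stop codon (nt) in each of the 5 AtGRP7-GFP libraries at LL36, with the window around UUCUGG shaded and a y axis of its own for each library. Replicate 4 has no listed position in the shaded window and 243 crosslinks upstream of it, while the peak at the position with 120, 153, 55, 95 and 96 crosslinks is shared by all 5.

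XL sites in AtGRP7 lay on a U more often than the bases of the whole gene. According to the paper, UV light crosslinks RNA to protein mainly at uridines. Of the listed positions, 39.9%, 39.7%, 45.8%, 43.5% and 40.9% were a U in replicates 1 to 5 (mean 42.0 ± 2.63%), against 31.9% of all bases of the gene, and all 5 libraries were above this value (exact sign-flip permutation test, p = 0.0625, the smallest possible). Weighted by crosslink count, 67.7 ± 2.04% fell on a U. At reproducible positions, the share of U was 54.2% in the intron (43.7% of all intron bases), 46.4% in the 3′ UTR (40.5%) and 39.6% in coding exons (19.4%). These references cover whole regions, including 310 coding bases of exon 2 without a listed position. In the coding part of exon 1, 112 of 114 bases were listed, so that listed sites there follow the local composition. The composition of the listed stretches alone was not tested. In the 5′ UTR only 2 of 10 reproducible positions were a U, and 50.0% were a C (26.6% of the bases). In AtGRP8, 17 of 22 reproducible positions were a U (77.3%, against 31.8% of the gene).

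AtGRP7 and AtGRP8 were then compared base by base. Their unspliced genes were identical at 65.5% of aligned bases, with 76% in coding exons, 75.9% in the intron, 52.8% in the 5′ UTR and 49.5% in the 3′ UTR. Of the 195 AtGRP8 positions, 148 aligned to a listed AtGRP7 position (75.9% of the AtGRP8 and 36% of the AtGRP7 positions), while 29.2% of all 1330 aligned bases were listed in AtGRP7. In coding exons, this held for 75 of 75 AtGRP8 positions, with 31.9% of the 504 aligned bases listed in AtGRP7. Of these 75, 54 lay in exon 1, where 112 of 114 coding bases of AtGRP7 were listed, so that overlap there was almost given in advance. Among reproducible positions, 17 of 22 aligned to a reproducible AtGRP7 position (77.3% of the AtGRP8 and 7.42% of the AtGRP7 positions), including 12 of 12 in the 3′ UTR and 2 of 6 in the 5′ UTR. Of all aligned bases, 16.5% were reproducible in AtGRP7, with 20.3% in the 3′ UTR and 4.56% in the 5′ UTR. The 12 AtGRP8 positions in the 3′ UTR lay in a single stretch, 18274063 to 18274077. They aligned to AtGRP7 positions 9265369 to 9265386, so that they are no independent matches to set against this share.

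The base aligned to the top coding position of AtGRP7, at 18274530 in AtGRP8 exon 2, had 10, 9 and 6 crosslinks in replicates 1, 2 and 5 and was not listed in replicates 3 and 4. The 21 nt around both bases are identical.
AtGRP7, chr2:9265846-9265866: ucaaggggauUcggauucguc
AtGRP8, chr4:18274520-18274540: ucaaggggauUcggauucguc
The authors kept uniquely mapping reads only. Of the listed coding positions of AtGRP8, 82.7% would give a unique 20-nt read and 93.3% a unique 30-nt read, and of those of AtGRP7 89.7% and 95.8%. At 15 nt these shares were 66.7% for AtGRP8 and 71.5% for AtGRP7. Listed positions in the UTRs of both genes would all give unique 20-nt reads. Of 15-nt reads, 65.2% would be unique in the 5′ UTR and 53.2% in the 3′ UTR of AtGRP7, and 11.1% and 40% in those of AtGRP8. Allowing for 3 mismatches, as the authors did in mapping, was not tested here.

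At LL24, AtGRP7 and AtGRP8 were nearly or entirely missing from the lists. AtGRP7 had 0, 3 and 0 crosslinks in AtGRP7-GFP replicates 1 to 3 at LL24, at 3 positions of the 3′ UTR (9265341, 9265342 and 9265349) that were listed in all 5 libraries at LL36. AtGRP8 was listed in none of the 3 libraries. Summed over libraries, AtGRP7 made up 13180 of 1180769 crosslinks at LL36 (1.12%) and 3 of 171212 at LL24 (0.00175%), a ratio of 637 (exact 95% interval 218 to 3089, counting error only). AtGRP8 had 999 crosslinks at LL36 and 0 at LL24. Of the transcripts listed at LL36 in AtGRP7-GFP, 27.3% were also listed at LL24.

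Across the 1024 transcripts tested with edgeR, the crosslink count of AtGRP7 was higher at LL36 than at LL24 by a log2 fold change of 9.26 ± 0.46 (SE, adjusted p = 1.37e-06). AtGRP8 was at 0 in each LL24 library, and no fold change is given. Both genes passed the filter on low counts through their LL36 libraries alone, which favours a higher value at LL36. The adjusted p of AtGRP7 is therefore no independent support for an excess at LL36. By fold change AtGRP7 ranked 22 among the 1024 transcripts, and the 8 with the largest fold change, among them AT1G20620 and AT1G13930, had no listed crosslink at LL24. In this comparison 16.8% of transcripts were higher at LL36 and 6.45% lower, and the median log2 fold change of all transcripts was 1.02. Relative to the median, AtGRP7 changed by 8.24. Without LL24 replicate 2, the only LL24 library that listed AtGRP7, the fitted value was 14.05. With LL24 then at 0, this is not a measured fold change. GR-RBP2 had a log2 fold change of 0.42 ± 1.62 (edgeR, adjusted p = 0.899). This value rested on LL24 replicate 1, which alone listed GR-RBP2 at LL24, and was 6.99 without it, with LL24 at 0 (edgeR, adjusted p = 0.185). GR-RBP5 and RZ-1A had too few crosslinks to be tested, and the remaining 4 genes were not listed.

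**Figure D5:**
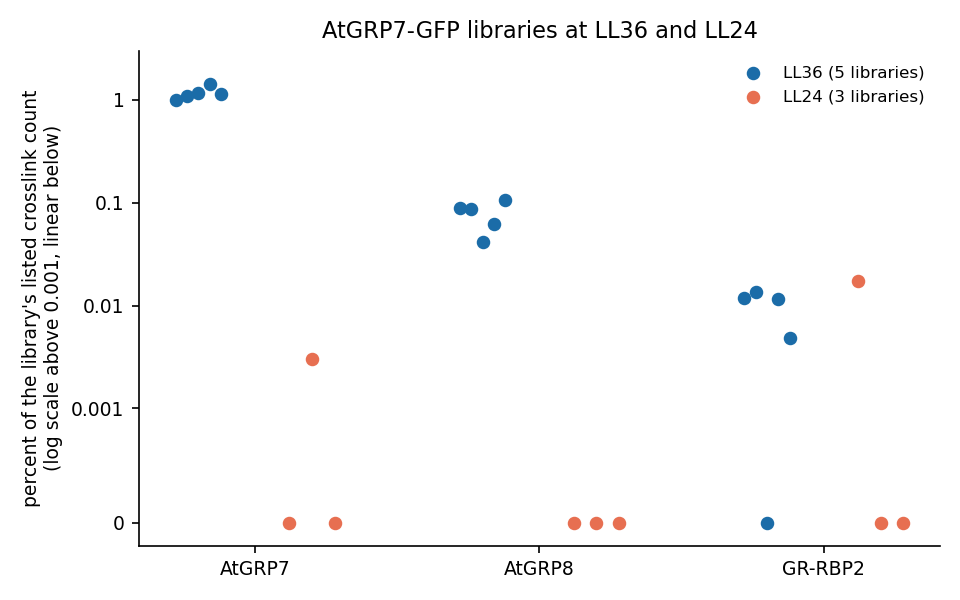
Percent of the library's listed crosslink count in AtGRP7, AtGRP8 and GR-RBP2 in each AtGRP7-GFP library at LL36 (blue, left) and LL24 (orange, right); the y axis is logarithmic above 0.001 and linear below. AtGRP7 lies between 1.00% and 1.44% at LL36, against 0.00306% in 1 LL24 library and 0 in the other 2, while the GR-RBP2 points of the times overlap.

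The LL24 libraries were shallower, with 45893, 98067 and 27252 listed crosslinks. The part of depth in the difference was not tested. Transcript abundance was not measured in these lists, so that fewer transcripts and fewer contacts per transcript cannot be told apart, nor can fewer expressing cells and less RNA per cell in bulk tissue.

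The difference between AtGRP7-GFP and the controls in log2(sites + 1) was larger at LL36 than at LL24. For AtGRP7 it was 6.90 at LL36 and 0.67 at LL24 against GFP-only, and 6.45 and 0.67 against AtGRP7 R49Q-GFP. For AtGRP8 it was 5.99 and 4.59 at LL36 and 0 at LL24. At LL24 no library of any genotype listed AtGRP8, so that its test could show nothing. AtGRP7 was listed at LL24 in 1 AtGRP7-GFP library, with 3 sites, and in no control library. Its test could therefore not tell the genotypes apart (exact permutation test, p = 1, with 0.1 the smallest p for 3 against 3). For region shares at LL24, only replicate 2 with its 3 crosslinks gave a value, all in the 3′ UTR, and 5 libraries against 1 cannot reach a p below 0.333 (exact permutation test, p = 0.333 in each region).

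The remaining members had few listed crosslinks or none. GR-RBP2, a mitochondrial protein of this family, had 40, 55, 0, 14 and 10 crosslinks in AtGRP7-GFP replicates 1 to 5 at LL36, at 17, 25, 0, 6 and 5 sites, and 8, 0 and 0 at LL24. Of 50 positions, 26 lay in the 3′ UTR at 8022104 to 8022185 and 24 in coding exons at 8021319 to 8021415 on chromosome 4. The libraries used different parts, with 51 of the 55 crosslinks of replicate 2 in coding exons and all 40 of replicate 1 in the 3′ UTR. At LL36 no position was listed in more than 2 libraries. Of the 5 positions listed in 2 of them, the one with the highest mean count, 8022118, had 5 crosslinks in replicate 1 and 4 in replicate 4. It is the U in capitals, shown as an example of a contact that recurred outside AtGRP7 and AtGRP8.
GR-RBP2 3′ UTR, chr4:8022108-8022128, plus strand: uuaguugguuUcuucuauuga
At LL24, replicate 1 listed 5 positions of the GR-RBP2 3′ UTR, 3 of which were also listed at LL36.

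RZ-1A, which has a zinc finger beside its RNA recognition motif, had 7 and 3 crosslinks in replicates 1 and 2 at LL36, at 7 coding positions between 9672434 and 9672467 on chromosome 3. A UUCUGG at 9672446 to 9672451 lay in this stretch, with 4 positions and 4 crosslinks within 10 nt. The other copies of RZ-1A, all in introns, had no listed position within 10 nt. The same held for the copies in GR-RBP3, GRP4, RZ-1B and RZ-1C. GR-RBP5, a mitochondrial editing factor, had 3 positions with 1 crosslink each in replicate 2. GR-RBP3, GRP4, RZ-1B and RZ-1C were not listed in any of the 21 libraries.

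Of 7 related glycine-rich or cold shock domain genes counted as a list (AT2G16260, AT1G18630, AT5G54580, AT4G36020, AT4G38680, AT2G17870 and AT2G21060), 2 were listed. AT4G38680, which encodes a cold shock domain protein with zinc fingers that melts RNA secondary structure, had 77, 99, 8, 26 and 50 crosslinks in AtGRP7-GFP replicates 1 to 5 at LL36 and 5, 16 and 0 at LL24. AT2G17870, another cold shock domain gene, had 4 crosslinks in replicate 4 at LL36.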

How the data were processed

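Seedlings of 3 genotypes were analysed by iCLIP in 21 libraries. According to their methods, the authors trimmed reads with cutadapt 1.9.1, removed PCR duplicates by random barcode, mapped to TAIR10 with STAR 2.5.2a and kept unique reads. They called XL sites separately within each transcript region against random placements (FDR below 0.05). The deposited values are raw crosslink counts, whole numbers at the called positions only and not scaled for depth, so that a missing position is no count of 0. The study's RIP-seq and RNA-seq were not used here.

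Members were matched by gene identifier. Repeated entries of 1 position in a library were counted once. Regions, lengths and sequences came from the first gene model of the RefSeq annotation of TAIR10.1, whose nuclear chromosomes share the coordinates of TAIR10. A single AtGRP7 position (9266202, with 7 crosslinks in all) without the authors' intron suffix was intronic in this model. AtGRP7 and AtGRP8 were aligned with mafft 7.526. Positions were reproducible when listed in at least 4 of 5 libraries at LL36.

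Numbers of listed sites were log2-transformed with a pseudocount of 1 and compared between genotypes with two-sided exact permutation tests, and shares with exact sign-flip permutation tests. Exact p-values between 2 groups are the smaller tail doubled, and the significance level was 0.05. Counts per transcript at LL36 and LL24 were compared with edgeR 4.0.16 (quasi-likelihood, TMM, filterByExpr, 1024 of 4641 transcripts tested, Benjamini-Hochberg), after a check on simulated counts. DESeq2 1.42.0 was an alternative. R 4.3.3, Python 3.11.15, numpy 2.4.6, scipy 1.17.1 and matplotlib 3.10.9 were used. Replicates are biological replicates according to the study's methods. The labels do not say that replicate numbers pair the libraries (see the dependence on processing), and no block was used.

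Other alternatives were the unit, the scale, a minimum of 2 crosslinks, the libraries required, the tolerance in position, and leaving out each library in turn. Shorter UTR ends, from the second annotated model, were added after the data were seen. The members, the lists and the tests were chosen with earlier results of these data known. All 9 members were named whatever their values, and in each region the reproducible position with the highest mean count. A search for transcripts with a similar pattern across the 8 AtGRP7-GFP libraries was not made, since AtGRP7 was not listed in 2 of them and AtGRP8 in 3.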

Additional observations from a re-analysis of the deposited data

Results flagged for a closer look

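The difference in listed sites between genotypes, as log2(sites + 1), was not the same at the time points. Against GFP-only, the difference between AtGRP7-GFP and control was larger at LL36 than at LL24 by 6.24 for AtGRP7 (exact permutation of the time labels within each genotype, p = 0.0434) and by 5.99 for AtGRP8 (p = 0.0357, exact permutation). Against AtGRP7 R49Q-GFP, these values were 5.78 and 4.59 (exact permutation, p = 0.0357 for each). The adjusted p over these 4 comparisons was 0.0434 for each. Both comparisons share the AtGRP7-GFP libraries. AtGRP8 was listed in no GFP-only library at either time, so that its value against GFP-only is the change between times in AtGRP7-GFP alone. No control library at LL24 listed AtGRP7 or AtGRP8. These p-values are therefore no independent support for a genotype difference that depends on time. The AtGRP7-GFP libraries also held fewer listed crosslinks at LL24 (27252 to 98067) than at LL36 (109583 to 401493).

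Single libraries stood apart from the other 4 of their group in 4 of 37 sets of 5 values, where chance marks about 1 in 20. Of these 4 sets, 3 are sites, crosslinks and share of the same gene, GR-RBP5, in 1 library. A gene listed in 1 library alone is always marked by this rule, so that the reference of 1 in 20 does not apply to these 3 sets. AtGRP7 position 9266368 in the 5′ UTR had 0 listed crosslinks in AtGRP7-GFP replicate 3 and 52 to 66 in the other libraries at LL36. In the whole 5′ UTR, replicate 3 had 2 crosslinks, against 158 to 310 in the others. GR-RBP5 was listed only in replicate 2, with 3 sites and 3 crosslinks (0.000747% of the library).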

How the results depend on the processing

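Across 35 values and their alternatives, 346 of 374 alternative values kept the direction and the side of the threshold or, for numbers of positions or transcripts, stayed close to the number reported. Where the smallest possible p lay above 0.05, the side of the threshold could not change, and only a change of direction could show. This held for sign-flip permutation tests on 5 libraries (0.0625) and exact permutation tests against AtGRP7 R49Q-GFP at LL36 (0.0952). It also held for exact permutation tests at LL24 (0.1, and 0.333 for region shares). As percent of a library's listed sites in place of their number, AtGRP7 in AtGRP7-GFP differed from GFP-only by −1.49 (exact permutation, p = 0.444) and from AtGRP7 R49Q-GFP by −0.24 percentage points, and AtGRP8 from AtGRP7 R49Q-GFP by −0.43, with 12 to 532 listed sites per control library. The AtGRP7 share of crosslinks against GFP-only ranged from −0.0475 (without GFP-only replicate 1, 3 or 5) to 0.62 percentage points when leaving out 1 library. With sites in place of counts, AtGRP7 coding exons and intron lay 5.44 and 4.69 percentage points above their length share, and the 3′ UTR 1.91 in place of 23.7; the cause was not tested. In the same unit, AtGRP7 minus AtGRP8 was −22.2 in the 3′ UTR (−1.91 by counts), 15.4 in coding exons (4.28) and 25.6 in the intron (13.9). Under the shorter UTR ends no direction changed, but the AtGRP7 5′ UTR lay −0.91 percentage points from its length share in place of −10.5 (adjusted p = 0.688, exact permutation), coding exons −16.4 in place of −6.09 and the intron −13.1 in place of −7.08, and the AtGRP8 5′ UTR 11.8 in place of 3.48.

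Leaving out 1 library, the AtGRP8 5′ UTR share minus its length share ranged from −1.20 (without replicate 4) to 9.0, the AtGRP7 minus AtGRP8 difference in coding exons from −1.68 (without replicate 3) to 7.21 and in the 3′ UTR from −6.78 to 7.79 (without replicate 3). Reproducible AtGRP7 positions numbered 134 in all 5 libraries, and 231 to 269 when 1 library was left out and 3 of 4 were required. For AtGRP8 they numbered 51 in at least 3 and 6 in all 5 libraries, 42 and 59 with a tolerance of 1 and 3 nt, 11 with at least 2 crosslinks, and 23 to 45 with 1 library left out (40, 45 and 35 without replicates 3, 4 and 5).

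With the replicate number as a block, the differences to GFP-only at LL36 stayed at 6.90 for AtGRP7 and 5.99 for AtGRP8, with p = 0.0625 (exact permutation), the smallest that 5 pairs allow. The edgeR comparison of LL36 with LL24 gave 119 transcripts in this block fit (69 higher at LL36), 387 with DESeq2 (324 higher) and 238 in the fit reported (172 higher), and 181 to 297 with 1 library left out (128 to 253 higher, 44 to 62 lower). The labels do not say that numbers mark shared material. Deviations of AtGRP7-GFP libraries with the same number at LL36 and LL24 correlated at −0.04, 0.09 and 0.05, in 2 of 3 cases above those with another number. Pairing between genotypes was not tested. The block changed no other call. GR-RBP2 had a log2 fold change of −0.0173 without LL24 replicate 2 and up to 6.99 with another library left out. Positions with at least 2 crosslinks, and leaving out LL24 replicate 2, gave no value for AtGRP7 regions at LL24.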
